A study of Mus musculus with 12 samples.

Results

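The genes described here are the expressed antisense transcripts of reprogramming mouse fibroblasts: 92 genes out of the 1034 that the deposited table of 24207 genes types as antisense. A gene was taken where its mean level reached 1 CPM (reads of the gene per 1e6 counted reads of the library) in at least 1 of the 4 groups of the study, leaving out Kcnq1ot1, Rian, Mirg and Meg3. Of these 4 names, Kcnq1ot1 alone was typed antisense and passed the limit, and 941 antisense genes stayed under it. Just inside the limit lay 2600006K01Rik, Gm12454 and 4930599N23Rik, whose highest group means were 1.02, 1.03 and 1.069 CPM, and just outside lay RP24-167M10.2, Chrna1os and Zfp85os with 0.9868, 0.9832 and 0.9809 CPM. The levels chose the genes, so a gene that reached 1 CPM in 1 group only, as 18 of the 92 did, had to be lower in the others, and counts over all 92 are given as descriptions.

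The cells were C57BL/6 mouse embryonic fibroblasts in 12 libraries, 4 groups of 3. All of them carried the lentiviral constructs FUW-OSKM and FUW-M2rtTA, through which doxycycline switches on Oct4 (gene Pou5f1), Sox2, Klf4 and Myc, the factors that can turn fibroblasts into pluripotent stem cells. Uninduced cells received no doxycycline and a scrambled hairpin. The induced groups carried the same scrambled hairpin (induced controls), a hairpin against Trim28 (Trim28 knockdown) or hairpins against Trim28 and Setdb1 (double knockdown). Culture lasted 7 days on irradiated feeder fibroblasts, and the labels say neither whether feeders were removed nor whether the replicates were separate cultures, so the spread behind each p-value is that between libraries and may be technical.

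Antisense genes are transcribed from the strand opposite to another gene, through its body, into its end, or away from it out of a shared promoter. Some are known to act in cis: the imprinted Airn silences Igf2r on the chromosome that transcribes it. Others are hosts of microRNAs or have no known function. Trim28 is recruited by KRAB zinc finger proteins and silences transposon-derived and imprinted DNA, and Setdb1, an H3 lysine 9 methyltransferase, is its usual partner.

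The libraries held 11906701 to 19191649 counted reads, so 3 reads correspond to 0.156 to 0.252 CPM in 1 library. Mitochondrial transcripts took 1.78% to 2.37% of reads. Trim28 stood at 371, 297 and 351 CPM in the induced controls, 65.2, 53.2 and 60.8 in the Trim28 knockdown and 105, 95.7 and 107 in the double knockdown. Setdb1 stood at 78.4, 87.6 and 86.2 CPM, then 126, 125 and 124, then 64.5, 70.2 and 54.3 in the same order, so Setdb1 was lower with both hairpins than in either other induced group, and Trim28 was higher than with its own hairpin alone. Uninduced cells had 208 to 252 CPM of Trim28 and 53.7 to 61.6 of Setdb1. The transcripts of Pou5f1 were at 16.5 to 19.9 CPM without doxycycline and at 289 to 624 in the induced libraries.

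Most of the antisense genes were rare transcripts. Their highest group mean had a median of 2.26 CPM, and 10 of the 92 exceeded 10 CPM. At 1 CPM or more, 51 were present in all 4 groups, 12 in 3, 11 in 2 and 18 in 1. The highest mean fell in the uninduced cells for 47 genes, in the induced controls for 15, in the Trim28 knockdown for 17 and in the double knockdown for 13. No read was counted in the uninduced cells for 4 of the genes and in the induced controls for 1. Together the 92 genes took 566 to 643 CPM of the uninduced libraries and 405 to 444 of the induced controls. In the Trim28 knockdown they took 391 to 393 CPM, and in the double knockdown 406 to 443. Without Dnm3os, the most abundant of them, the sums were 351 to 383, 316 to 340, 303 to 309 and 321 to 331 CPM, in the same order of groups.

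**Figure D1:**
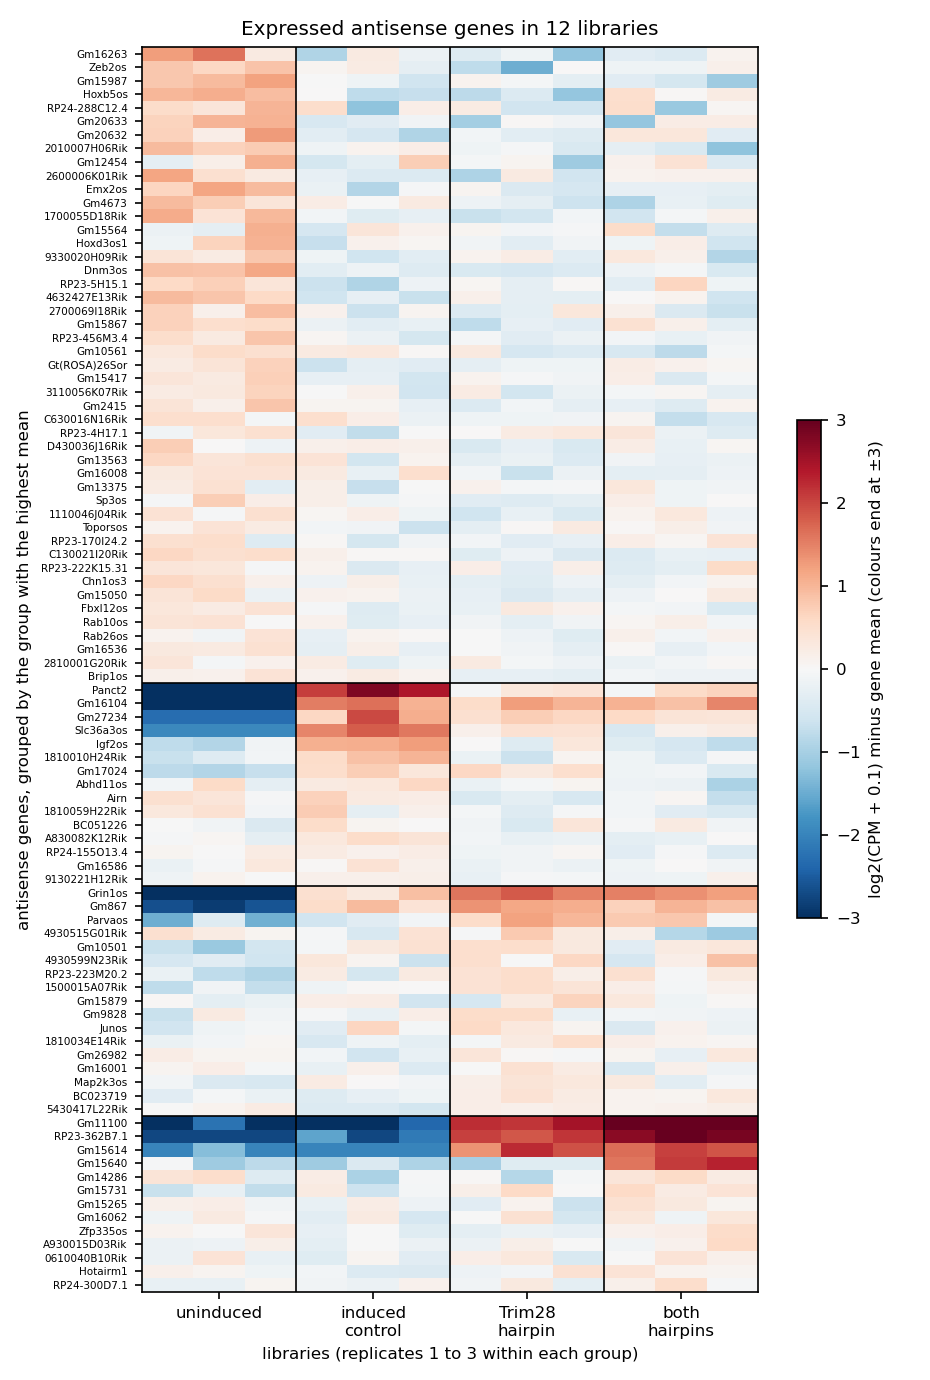
Each row is 1 of the 92 antisense genes and each column 1 library, coloured by log2(CPM + 0.1) minus the mean of the gene over the 12 libraries. Rows are grouped by the group with the highest mean (47, 15, 17 and 13 genes from top to bottom). The strongest contrasts are the genes that are blue in uninduced cells, such as Panct2 and Gm16104, and those that are red only in knockdown columns, such as Gm11100 and RP23-362B7.1.

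In GENCODE M21, an annotation of GRCm38, 90 of the 92 identifiers were found, each at an overlapping place, and 76 of these were still typed antisense, 5 as transcripts of a bidirectional promoter and 4 as protein coding. The spans of 79 genes overlapped another gene of the table, which was protein coding for 77, and 13 overlapped none. In M21 the partner was on the opposite strand for 75 genes and on the same strand for 2. The median gene shared 13.3% of its exonic bases with exons of other genes. For 26 genes that share was 0, and for 8 it was 50% or more. The libraries came from a TruSeq RNA kit and no source says that strand was used in counting, so reads from shared bases cannot be assigned to a strand, and a count can hold reads of its partner. Compared per kb of exon, the antisense gene was lower than its partner in 57 of 77 pairs in the uninduced cells and in 58 in the induced controls, and its median level was 17.5% and 16.7% of the partner's. Dnm3os was an exception, with 28.8 CPM per kb against 0.414 for Dnm3 in uninduced cells.

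A start within 1 kb of the start of a coding gene on the other strand was annotated for 37 genes, 41.1% of those found in M21, against 26.5% of the 914 other antisense genes found there. RefSeq promoters (GRCm38.p6, 250 bases before to 50 after the start) matched 56 of the 92. They held a median of 16 CG dinucleotides, against 7 over all 32851 promoters of that table. The median was 28 in the 22 promoters that start near a coding gene and 10 in the other 34.

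Dnm3os was the most abundant antisense gene. It lies within Dnm3, the gene of dynamin 3, on the opposite strand (ENSMUSG00000078190, chromosome 1, 162217623 to 162225550, plus strand in M21), and its transcript is the precursor of miR-199a and miR-214, microRNAs typical of mesenchymal cells. The RefSeq mature sequences that fall in its span, all on its strand, are printed with the seed (bases 2 to 8) in capitals, because they are its known products, and no pair of them shares a seed.
mmu-miR-199a-5p: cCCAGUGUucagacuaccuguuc
mmu-miR-199a-3p: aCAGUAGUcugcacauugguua
mmu-miR-214-5p: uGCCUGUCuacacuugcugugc
mmu-miR-214-3p: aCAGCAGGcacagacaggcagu
Uninduced cells had 215, 210 and 261 CPM of Dnm3os, and induced controls 93.9, 105 and 89.9. The groups lie far apart, and the log2 change was -1.38 ± 0.10 (± SE, as for all changes given here, n = 3 per group, edgeR adjusted p = 6.21e-09). The Trim28 knockdown had 85.8, 82.1 and 88.3 CPM and the double knockdown 106, 112 and 84.8, and neither passed against the induced controls (adjusted p = 0.32 and 0.371). Dnm3 went from 10.1, 9.75 and 10.5 CPM to 5.04, 3.86 and 3.65, a change of -1.40 ± 0.14, and the ratio of both genes was not called changed. Exons of Dnm3 hold none of the exonic bases of Dnm3os in M21. The microRNAs themselves were not measured here.

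The next in abundance were Brip1os, Gm16586 and Rab10os, at 76.2 ± 8.51, 33.8 ± 6.41 and 23.7 ± 3.77 CPM in uninduced cells (SD, n = 3). Brip1os begins 177 bases from the start of Brip1, a DNA repair helicase gene, and runs through Ints2, the gene of a subunit of the Integrator complex. It stood at 70.6, 76.9 and 69.6 CPM in induced controls and at 54.8, 55.0 and 53.0 in the Trim28 knockdown, with no overlap, and fell by 0.40 ± 0.080 on the log2 scale (adjusted p = 0.00162). Brip1os was also called as a fall with induction, but that call was lost in 6 of 12 alternatives, DESeq2 among them (adjusted p up to 0.182). Gm16586 had 33.9, 44.8 and 36.6 CPM in induced controls and 28.6, 30.8 and 29.2 with the Trim28 hairpin, a change of -0.36 ± 0.12 (adjusted p = 0.0412) that passed in 7 of 12 alternatives and was lost without either replicate 2 or 3 of the induced controls or any 1 of the Trim28 knockdown libraries (adjusted p up to 0.129). Rab10os fell with induction, by 0.55 ± 0.14 on the log2 scale between groups that overlap, and passed in neither knockdown.

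The scrambled hairpin groups with and without doxycycline were compared first, to ask how these genes differed between them. Among the 92 genes, 11 rose and 34 fell, that is 48.9% called, beside 65.3% of the 14520 tested genes (32.7% rose and 32.7% fell), and the median log2 change was -0.41 against -0.02 over all tested genes. A gene is called where its edgeR adjusted p over all tested genes was under 0.05. The libraries of the groups did not overlap for 41 of the 92, 14 higher and 27 lower, beside 64.2% of all tested genes. Of the 51 genes at 1 CPM or more in every group, 3 rose and 20 fell. DESeq2 kept 22 of the 34 falls and lost 12. With a minimum count of 30, 12 of the falls were not tested and the other 22 were kept. Between these groups the cells differed widely in type: the summed level of 8 of 8 fibroblast markers was 40919 to 47611 CPM in uninduced cells and 25774 to 34130 in induced controls. The summed level of 6 of 6 epithelial markers rose from 6.9 to 7.87 up to 1616 to 2070 CPM, with Esrp1 at 0 reads in the uninduced cells. That of 8 of 8 pluripotency markers went from 0.118 to 0.61 up to 82.8 to 117 CPM, with Lin28a, Tdgf1, Tdh, Utf1 and Zfp42 at 0 reads before induction. Their part in the antisense changes was not tested, and in bulk RNA fewer cells of a type and less RNA per cell cannot be told apart.

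Among the genes that fell, Hoxb5os, Emx2os, Zeb2os and Hoxd3os1 lie at genes of transcription factors that act in development. Hoxb5os, which crosses the Hoxb5 and Hoxb6 part of the HoxB cluster, had 2.24, 2.38 and 2.14 CPM in uninduced cells and 1.08, 0.588 and 0.625 in induced controls. These do not overlap, and the change was -1.66 ± 0.27 (adjusted p = 4.69e-05). Hoxb4 to Hoxb9 fell too, by 0.54 ± 0.18, 0.66 ± 0.13, 0.71 ± 0.14, 0.44 ± 0.18, 0.89 ± 0.13 and 1.04 ± 0.12 on the log2 scale, in the order of their numbers. Emx2os, which leaves the shared start region of the homeobox gene Emx2, went from 3.3, 4.88 and 4.15 CPM to 1.8, 1.09 and 2.03, and Emx2 from 9.97, 12 and 12.5 to 5.22, 4.62 and 4.53. The changes were -1.40 ± 0.23 and -1.39 ± 0.14. Zeb2os fell by 0.95 ± 0.30 beside 1.01 ± 0.096 for Zeb2, a repressor of epithelial genes. About this pair the counts say little on strand, since 32.8% of the exonic bases of Zeb2os lie in Zeb2 exons. The call for Zeb2os was lost with DESeq2 and when replicate 3 was left out of the induced controls (adjusted p up to 0.0638). Hoxd3os1 had overlapping groups and a change of -0.94 ± 0.34 (adjusted p = 0.0248) that was lost in 5 of 11 alternatives, DESeq2 among them, and without replicate 2 or 3 of the uninduced cells or replicate 1 of the induced controls. Zeb2os and Hoxd3os1 reached a mean of 1 CPM in uninduced cells alone, so the rule that chose them fixed the direction of their falls. Not every antisense gene at such a factor fell. A830082K12Rik, which crosses the start of the nuclear receptor gene Nr2f1, had 3.83, 4.08 and 3.24 CPM before and 4.92, 5.8 and 5.16 after, and was called as a rise of 0.37 ± 0.15 (adjusted p = 0.0373). That call was lost in 7 of 12 alternatives, DESeq2 among them, and without replicate 1 or 3 of the uninduced cells or 2 or 3 of the induced controls. Gm15050, inside Hoxa3, and Hotairm1 did not pass (-0.42 ± 0.25 and -0.49 ± 0.27).

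The other large falls were of clone-named genes. 4632427E13Rik, which starts 135 bases from Rab30, went from 7.2, 6.64 and 5.68 CPM to 2.4, 3.11 and 2.29, a change of -1.48 ± 0.20. Gm20632 and Gm20633, a pair beside histone H3 genes on chromosome 3, changed by -1.57 ± 0.31 and -1.40 ± 0.32. Gm15987, inside the lectin gene Clec2g, had 7.43, 8.11 and 9.77 CPM before and 4.14, 3.78 and 2.71 after, -1.40 ± 0.20. Gt(ROSA)26Sor, the transcript of the Rosa26 locus that is widely used for inserting transgenes, starts 32 bases from Setd5. It went from 9.44, 10.4 and 12.7 CPM to 5.04, 6.55 and 6.2, without overlap and with a change of -1.01 ± 0.14 (adjusted p = 7.56e-06), while Setd5 on the other side of that start rose by 0.20 ± 0.064. RP23-456M3.4, C130021I20Rik and Gm16536, also among the 10 most abundant, fell by 0.91 ± 0.17, 0.61 ± 0.10 and 0.60 ± 0.13. Smaller falls with a gene name were those of Toporsos, Chn1os3 and Fbxl12os, each by 0.70 on the log2 scale, with standard errors of 0.24 to 0.26, and each was lost with DESeq2. Single libraries decided them too: the call was lost without replicate 2 of the uninduced cells or 3 of the induced controls for Toporsos, without replicate 1 or 2 and 1 or 3 of these groups for Chn1os3, and without replicate 1 or 3 and 2 or 3 for Fbxl12os. Chn1os3 and Fbxl12os reached a mean of 1 CPM in uninduced cells alone, which fixed the direction of their falls.

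Fewer genes rose with induction. Most of those described here reached 1 CPM in induced groups alone, so the rule that chose them fixed the direction. Of the 51 genes at 1 CPM or more in every group, 3 rose and 20 fell, beside 32.7% and 32.7% of all tested genes. Panct2 (ENSMUSG00000097814, chromosome 1, 96871126 to 96881234), named as a pluripotency-associated noncoding transcript, had no read in the 3 uninduced libraries and 3.42, 5.71 and 4.43 CPM in the induced controls. Against a floor of 3 reads over the group this is at least 72.9-fold higher (adjusted p = 1.28e-08). Slco4c1, the organic anion transporter gene whose first part it overlaps on the other strand, behaved in the same direction, from 0 reads to 1.08, 1.93 and 1.25 CPM, at least 22.6-fold higher. The knockdowns lowered Panct2 to 0.711, 0.964 and 1.02 CPM with the Trim28 hairpin and to 0.699, 1.14 and 1.23 with both. These were changes of -2.28 ± 0.27 and -2.06 ± 0.26 (adjusted p = 2.18e-05 and 2.7e-05), the largest falls among the 92 genes in either comparison. Slco4c1 fell by 2.83 ± 0.39 and 2.39 ± 0.36. No exonic base of Panct2 lies in an exon of another M21 gene.

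Gm27234 and Slc36a3os followed Panct2 in having no read in uninduced cells. Gm27234, inside the orexin receptor gene Hcrtr2, reached 0.659, 1.85 and 0.938 CPM, and Slc36a3os 0.959, 1.26 and 1.04, each at least 17.7-fold higher. With the Trim28 hairpin Slc36a3os stood at 0.323, 0.422 and 0.42 CPM and with both hairpins at 0.175, 0.326 and 0.352, below every induced control. Its falls were 1.42 ± 0.33 and 1.83 ± 0.34 on the log2 scale, of which the first was lost with DESeq2 (adjusted p = 0.0522). Gm2a, a lysosomal activator gene 24015 bases away, rose with induction by 1.52 ± 0.083 and fell by 1.05 ± 0.082 and 1.01 ± 0.081 in the knockdowns. Gm27234 passed in neither (-0.70 ± 0.37 and -0.87 ± 0.37). Both Gm27234 and Slc36a3os reached a mean of 1 CPM in the induced controls alone, so the rule that chose them fixed these directions.

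Gm16104 lies inside Nfic, the gene of a nuclear factor I protein. It had 0, 0.0609 and 0 CPM in uninduced cells, which is 1 read, and 3.72, 4.03 and 2.61 in induced controls, a ratio of 167 with a 95% counting interval of 29.5 to 6621. Nfic stood at 125 to 168 CPM before and 138 to 191 after (0.01 ± 0.11, not passed), and 18.0% of the exonic bases of Gm16104 lie in its exons. Smim24, a gene 14183 bases away, rose by 4.46 ± 0.41. Grin1os lies inside the NMDA receptor gene Grin1, whose exons hold 45.2% of its exonic bases. It rose from 2 reads over the uninduced group to 2.22, 1.93 and 3.02 CPM, a ratio of 61.4 (16.6 to 513). Grin1 rose as well, from 1.71, 1.89 and 1.34 CPM to 5.22, 2.27 and 3.96, by 1.11 ± 0.29. Grin1os was higher still in the knockdowns, with 4.98, 5.84 and 4.62 CPM and then 4.66, 4.18 and 3.81, by 1.09 ± 0.19 and 0.84 ± 0.19. In the knockdowns Grin1 changed by -0.27 ± 0.26 and -0.24 ± 0.26 and passed in neither. Lrrc26, which ends 40 bases before Grin1os on the same strand, moved with it: 0 reads in uninduced cells, at least 12.8-fold higher after induction, and up by 1.42 ± 0.33 and 1.49 ± 0.32 in the knockdowns. Gm867, typed protein coding in M21, went from 0.295, 0.244 and 0.305 CPM to 3.48, 4.62 and 3.18, a rise of 3.55 ± 0.28 beside 1.78 ± 0.22 for the mitochondrial gene Chchd10, with which it shares 3 bases of span. With the Trim28 hairpin it rose by a further 0.60 ± 0.16, a call lost without replicate 3 of the induced controls or replicate 1 of the Trim28 knockdown (adjusted p up to 0.0765).

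The promoters of Panct2 and Gm16104 are shown because these genes had 0 and 1 read in the uninduced cells and were among the largest rises, with matches to 5 motifs, searched on both strands, in capitals. The core promoter motif TATAAA occurs in 13.6% of all RefSeq promoters of this length. The motif CCAAT, another common promoter element, occurs in 37.4% of them. The letters CACGTG, to which Myc with its partner binds, occur in 7.15% of them. The octamer ATTTGCAT, to which Oct4 binds, occurs in 1.74% of them. The AP-1 site TGACTCA occurs in 5.2% of them. In Gm16104 there are 1 CCAAT and 2 TGACTCA matches, 1 of them on the reverse strand, and none shares letters with another. In Panct2 there is none. Panct2 holds 3 and Gm16104 5 CG dinucleotides, under the median of 7 for all promoters, of which 43.6% hold 5 or fewer.
Panct2, chr1:96870876-96871175, plus strand, GRCm38.p6: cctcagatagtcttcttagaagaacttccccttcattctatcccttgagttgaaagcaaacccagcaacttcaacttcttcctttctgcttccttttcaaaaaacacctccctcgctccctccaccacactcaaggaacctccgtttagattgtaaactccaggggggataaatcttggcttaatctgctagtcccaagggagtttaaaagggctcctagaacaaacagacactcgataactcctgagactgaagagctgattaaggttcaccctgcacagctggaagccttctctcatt
Gm16104, chr10:81409325-81409624, plus strand, GRCm38.p6: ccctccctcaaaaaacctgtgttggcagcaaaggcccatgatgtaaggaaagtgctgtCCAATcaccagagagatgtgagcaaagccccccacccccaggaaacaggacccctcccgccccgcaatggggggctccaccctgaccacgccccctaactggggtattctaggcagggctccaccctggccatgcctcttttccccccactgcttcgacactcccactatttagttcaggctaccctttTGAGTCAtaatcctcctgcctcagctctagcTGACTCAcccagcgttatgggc
The RefSeq start of each coincides with its start in the deposited table.

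**Figure D2:**
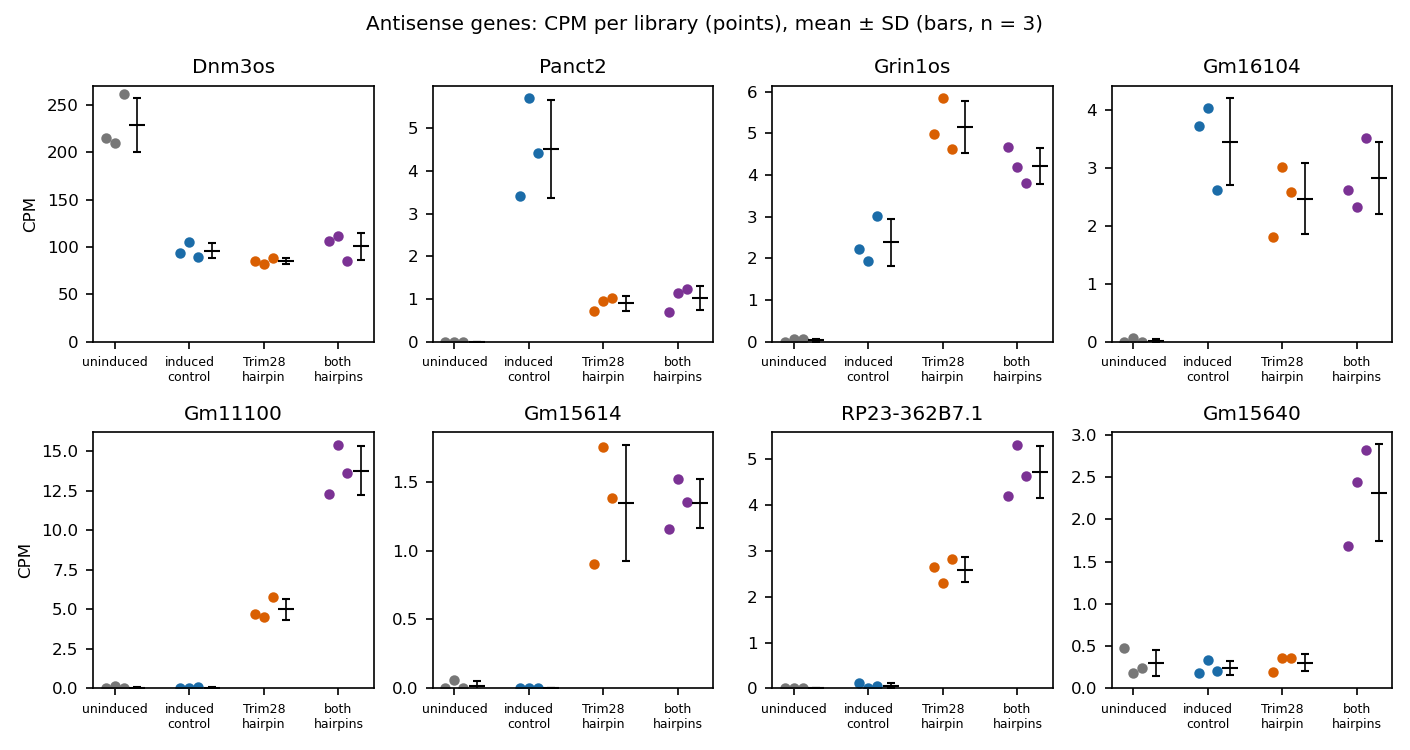
CPM of 8 antisense genes in each library (points) with the mean and SD of the 3 libraries (bars). The upper row shows genes that changed with induction, Dnm3os down and Panct2, Grin1os and Gm16104 up, and the lower row genes at or near 0 in the induced controls, with Gm11100 at 12.3 to 15.4 CPM and Gm15640 at 1.69 to 2.82 CPM with both hairpins.

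Comparisons of hairpins within induced cells ask what lowering Trim28, alone or with Setdb1, changed, and both are set against the same 3 induced control libraries. With the Trim28 hairpin 8 of the 92 genes rose and 9 fell, 18.5% called beside 24.9% of all tested genes (13.1% rose and 11.8% fell), with a median change of 0.01. With both hairpins 11 rose and 11 fell, 23.9% called beside 36.7% of all tested genes (18.1% rose and 18.5% fell), and the median change was 0.11. DESeq2 kept 7 of these rises and 9 of the falls. With a minimum count of 30, 4 of the rises (Gm15614, Gm15640, Parvaos and Zfp335os) were not tested and the other 7 were kept. Libraries of the groups did not overlap for 31 and 32 of the genes, beside 38.8% and 45.0% of all tested genes. Genes that start within 1 kb of a coding gene's start were called in 2 of 37 cases with the Trim28 hairpin and in 5 of 37 with both, and the other genes found in M21 in 14 of 53 and 17 of 53. In these groups the pluripotency markers summed to 67.3 to 80.6 CPM with the Trim28 hairpin and to 28.6 to 45.6 with both, and the epithelial markers to 1633 to 1852 and 892 to 1121. The fibroblast markers summed to 25701 to 27502 and 31553 to 34342 CPM. Their part in the changes was not tested.

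**Figure D3:**
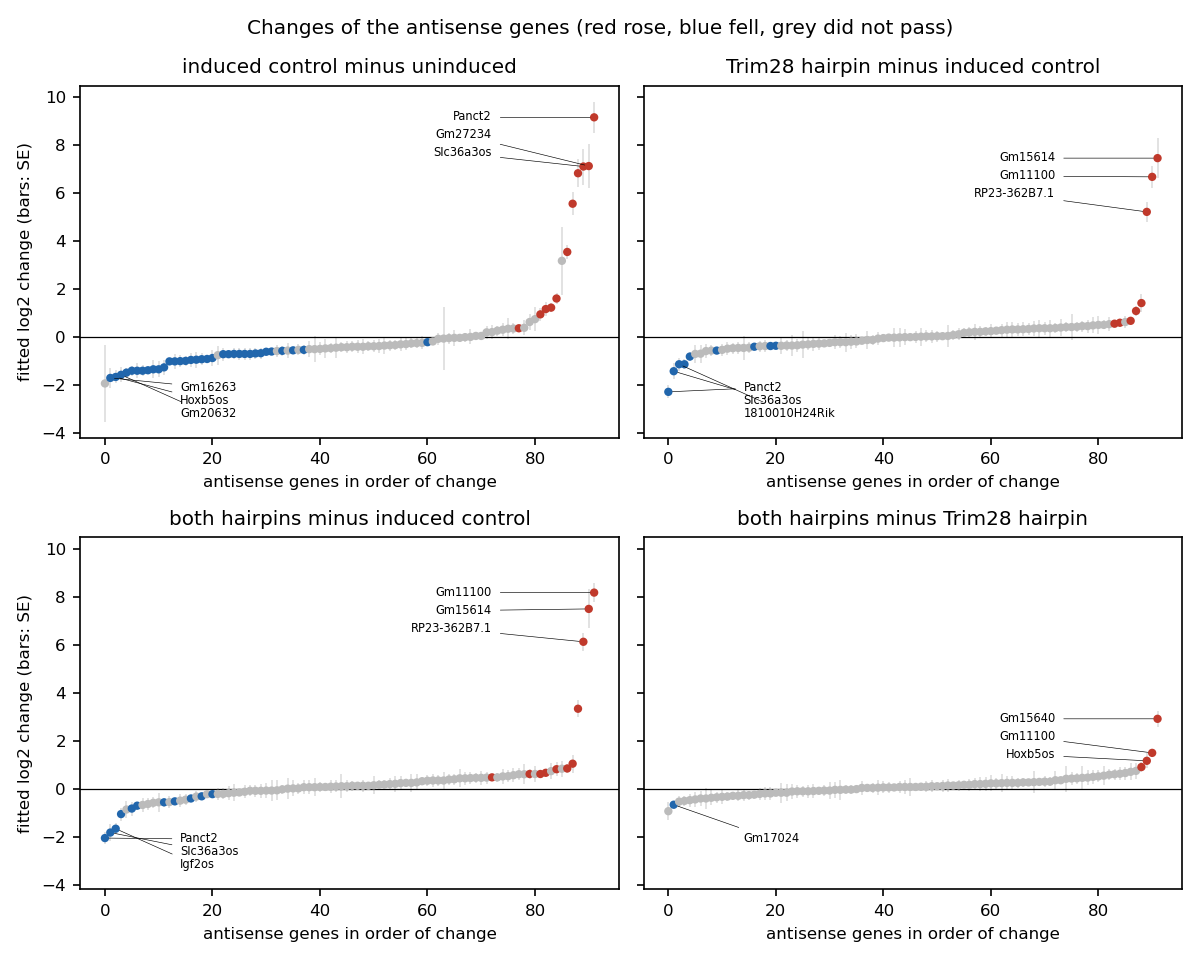
Fitted log2 changes of the 92 antisense genes in the 4 comparisons, in order of size, with standard errors and the names of up to 3 called genes at each end. Red genes rose and blue genes fell (11 and 34, 8 and 9, 11 and 11, 4 and 1). With induction and in both comparisons against the induced controls the highest points belong to genes with 0 to 3 reads in 1 group, whose fitted values depend on the prior count and are given as bounds or ratios in the text.

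Gm11100 showed the largest response to the hairpins. This gene (ENSMUSG00000079357, chromosome 14, 13918444 to 13949558, plus strand in M21) ends in Thoc7, a subunit gene of the mRNA export complex THO. It had 0, 0.122 and 0 CPM in uninduced cells and 0, 0 and 0.104 in induced controls, 2 reads in each group. With the Trim28 hairpin it stood at 4.72, 4.52 and 5.76 CPM, a ratio to the induced controls of 120 (95% counting interval 32.8 to 993, edgeR adjusted p = 3.94e-08). With both hairpins it stood at 12.3, 15.4 and 13.6 CPM, a ratio of 330 (91.0 to 2730, adjusted p = 3.11e-10). The difference between the knockdowns was itself a rise of 1.49 ± 0.17 (adjusted p = 2.46e-05). Like RP23-362B7.1 and Gm15614 below, Gm11100 reached a mean of 1 CPM in the hairpin groups alone. The rule that chose these genes thus fixed the direction of their rises over the induced controls. Thoc7 was measured at 46.1 to 54.9 CPM in the induced controls and 54.0 to 56.4 with the Trim28 hairpin, a change of 0.14 ± 0.076 that did not pass, and rose by 0.38 ± 0.075 with both hairpins. Gm281, the gene on the other side of its start, had at most 0.0646 CPM in any library.

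RP23-362B7.1 rose together with the gene it overlaps. It is typed in M21 as a transcript of a bidirectional promoter (ENSMUSG00000099474, chromosome 17, 30622441 to 30626905, minus strand), and it overlaps the first part of Dnah8, the gene of an axonemal dynein heavy chain of sperm. It had no read in uninduced cells and 0.12, 0 and 0.0521 CPM in induced controls, then 2.65, 2.29 and 2.82 CPM with the Trim28 hairpin and 4.19, 5.32 and 4.64 with both. The ratios to the induced controls were 41.2 (13.8 to 202) and 75.3 (25.5 to 368), with adjusted p of 7.16e-07 and 3.27e-08. Dnah8 went from 0.3, 0.252 and 0.313 CPM to 8.08, 8.55 and 8.77 and to 8.91, 11 and 8.74, changes of 4.84 ± 0.22 and 5.04 ± 0.22. Between the knockdowns the antisense gene rose by 0.90 ± 0.19 (adjusted p = 0.00396), whereas Dnah8 did not pass (0.21 ± 0.13), though the ratio of both was not called different. Exons of Dnah8 hold 24.5% of its exonic bases. Glo1, 9782 bases away, changed by 0.20 ± 0.060 and 0.18 ± 0.060.

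Gm15614 had 1 read over the uninduced group and 0 over the induced controls. It spans the region from Yes1, a Src-family kinase gene, to Ppp1cb on chromosome 5, and it had 0.905, 1.75 and 1.38 CPM with the Trim28 hairpin and 1.16, 1.52 and 1.35 with both, at least 21.6-fold and at least 21.5-fold higher (adjusted p = 1.25e-05 and 8.01e-06). The difference between the knockdowns was 0.03 ± 0.29 and did not pass. Neither Yes1 nor Ppp1cb passed in either comparison, with changes of -0.32 ± 0.13 and -0.28 ± 0.13 for Yes1 and 0.09 ± 0.089 and 0.01 ± 0.089 for Ppp1cb. No exonic base of Gm15614 lies in an exon of another gene.

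Gm15640, within Phldb2, the gene of a cortical membrane protein, rose with both hairpins, and more than with the Trim28 hairpin alone. It had 0.18, 0.336 and 0.208 CPM in induced controls, 0.194, 0.361 and 0.36 with the Trim28 hairpin and 1.69, 2.44 and 2.82 with both. This was a rise of 3.33 ± 0.36 over the induced controls (adjusted p = 3.34e-06). Over the Trim28 knockdown the rise was 2.91 ± 0.34 (adjusted p = 2.51e-05). Gm15640 reached a mean of 1 CPM only with both hairpins, so the rule that chose it fixed the direction of both rises. Phldb2 rose by 0.52 ± 0.082 and 0.71 ± 0.082 in the knockdowns, from 213 to 251 CPM up to 309 to 346 and 350 to 382. No exonic base of Gm15640 lies in an exon of another gene. Gm15638, 6327 bases away, had at most 0.354 CPM in any library and was not tested. Plcxd2, 19984 bases away, passed in neither comparison (0.19 ± 0.11 and 0.22 ± 0.11).

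The RefSeq promoters of Gm11100 and RP23-362B7.1 are printed because both genes were near silent with the scrambled hairpin and rose with both sets of hairpins. They hold 8 and 14 CG dinucleotides. Capitals mark the single motif match, CCAAT on the reverse strand of Gm11100, and RP23-362B7.1, listed there as 1700097N02Rik, holds none of the 5 motifs.
Gm11100, chr14:13918194-13918493, plus strand, GRCm38.p6: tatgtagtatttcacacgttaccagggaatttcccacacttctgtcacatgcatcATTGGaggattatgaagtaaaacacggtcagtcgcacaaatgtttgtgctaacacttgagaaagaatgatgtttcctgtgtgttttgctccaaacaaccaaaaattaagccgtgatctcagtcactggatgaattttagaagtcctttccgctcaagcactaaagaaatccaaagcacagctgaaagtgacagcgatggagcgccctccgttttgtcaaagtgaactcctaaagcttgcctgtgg
RP23-362B7.1, chr17:30626856-30627155, minus strand, GRCm38.p6: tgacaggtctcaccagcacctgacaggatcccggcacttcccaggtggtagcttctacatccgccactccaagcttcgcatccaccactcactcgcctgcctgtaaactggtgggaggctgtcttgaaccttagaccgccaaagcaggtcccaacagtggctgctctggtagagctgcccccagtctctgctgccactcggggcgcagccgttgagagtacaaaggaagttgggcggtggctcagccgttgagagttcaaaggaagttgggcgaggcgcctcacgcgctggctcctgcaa
For Gm15614 the RefSeq start lies 67679 bases from the start in the table, and its promoter is not shown.

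Imprinted loci gave 2 of the genes that fell in the knockdowns. Airn (chromosome 17, 12741311 to 12860122) starts inside Igf2r, the gene of the receptor that clears insulin-like growth factor 2. It had 9.79, 9.08 and 6.78 CPM in uninduced cells and 11.4, 8.4 and 8.18 in induced controls, then 5.11, 5.66 and 4.98 with the Trim28 hairpin, below every control, and 6.58, 7.33 and 4.23 with both. The changes were -0.81 ± 0.20 (adjusted p = 0.00673) and -0.57 ± 0.19 (adjusted p = 0.0295), and the second was lost when replicate 1 of the induced controls or replicate 3 of the double knockdown was left out (adjusted p up to 0.129). Igf2r stood at 740 to 848 CPM in the controls, 673 to 696 with the Trim28 hairpin and 683 to 774 with both, changes of -0.19 ± 0.067 (adjusted p = 0.0454) and -0.08 ± 0.067 (adjusted p = 0.396).

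Igf2os, opposite the imprinted growth factor gene Igf2, rose with induction and fell with the hairpins. It had 1.47, 1.34 and 2.38 CPM in uninduced cells, 5.46, 5.54 and 6.3 in induced controls, 2.59, 1.93 and 3.3 with the Trim28 hairpin and 1.98, 1.79 and 1.47 with both. The rise was 1.61 ± 0.22 (adjusted p = 8.43e-06) and the falls were 1.13 ± 0.21 and 1.67 ± 0.22 on the log2 scale (adjusted p = 0.000739 and 2.3e-05), none of which was lost in any alternative. Igf2 did not pass with induction (0.01 ± 0.16), and its level was 1326 to 2016 CPM in the induced controls, 499 to 747 with the Trim28 hairpin and 490 to 754 with both, falls of 1.41 ± 0.17 and 1.35 ± 0.17. So the pair parted during induction and went down together in the knockdowns. Exons of other genes hold 23.2% of the exonic bases of Igf2os and Igf2 exons 1.84%, and Igf2 was far more abundant, at 287 CPM per kb against 1.08 in induced controls. The part of shared reads in these values was not tested.

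**Figure D4:**
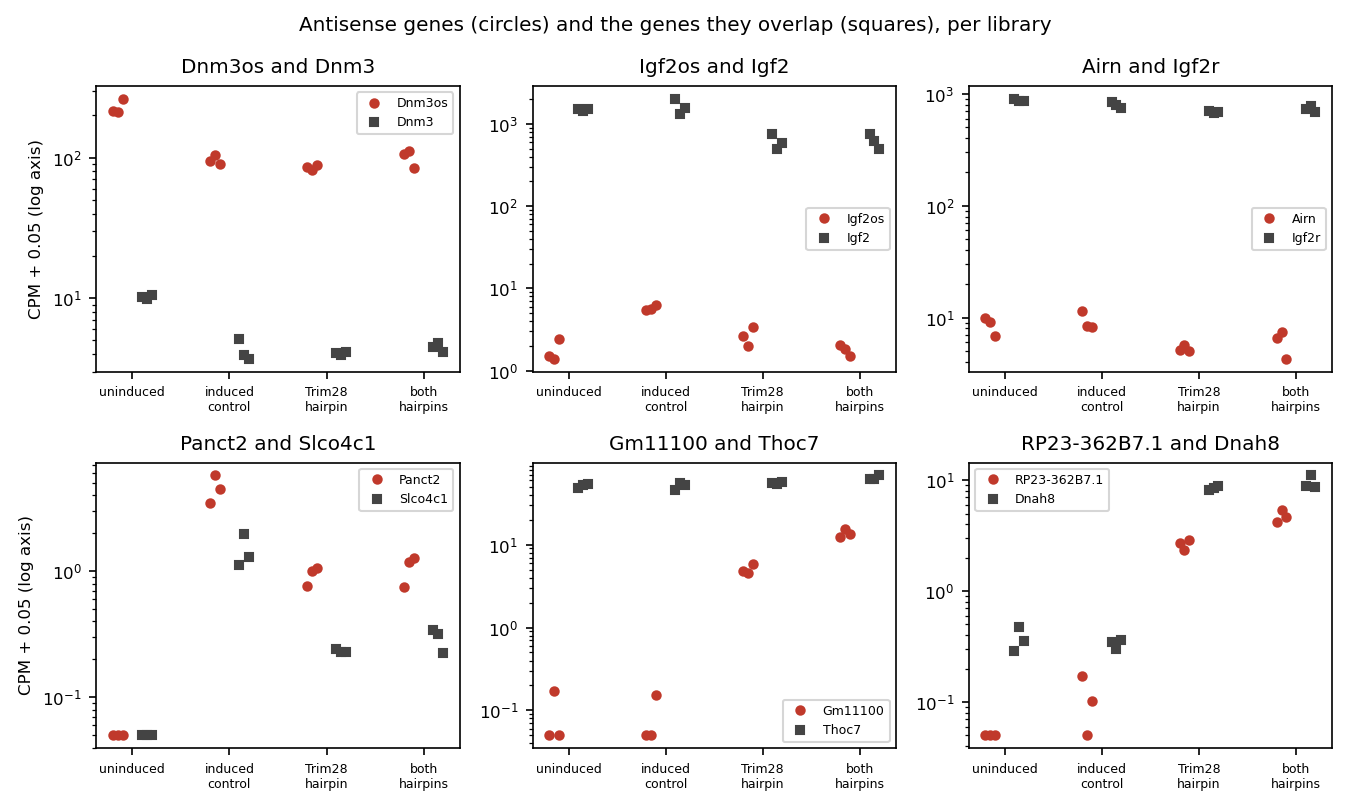
CPM + 0.05 on a log axis for 6 antisense genes (circles) and the genes they overlap (squares), 1 point per library. Dnm3os lies above Dnm3, and Igf2os and Airn lie far below Igf2 and Igf2r. Gm11100 climbs to 12.3 to 15.4 CPM under a nearly level Thoc7, whereas RP23-362B7.1 and Dnah8 climb together.

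Other genes were called with both sets of hairpins. 5430417L22Rik, which RefSeq lists as the coding gene Inafm2, fell with induction from 15.6, 16.9 and 18.5 CPM to 11.7, 11.8 and 10.6. It was back at 18.0, 17.5 and 18.3 CPM with the Trim28 hairpin and 16.9, 17.1 and 17.7 with both. The groups do not overlap, the rises were 0.68 ± 0.095 and 0.66 ± 0.095 (adjusted p = 6.63e-05 and 6.05e-05), and A430105I19Rik, 5348 bases away, went from 42.8 to 46.9 CPM up to 86.0 to 88.6 and 76.5 to 79.1. 1810010H24Rik had 1.38, 1.76 and 1.93 CPM in the induced controls, after a rise of 1.17 ± 0.28, and fell by 1.13 ± 0.27 and 1.06 ± 0.27. It reached a mean of 1 CPM in the induced controls alone, so the rule that chose it fixed these directions. A830082K12Rik, at Nr2f1, fell by 0.56 ± 0.15 and 0.53 ± 0.15, and Nr2f1 passed in neither (-0.12 ± 0.12 and 0.06 ± 0.11). C130021I20Rik fell by 0.37 ± 0.11 and 0.32 ± 0.11, the first lost without replicate 1 of the induced controls or 1 or 3 of the Trim28 knockdown, and the second without replicate 1 of the induced controls or of the double knockdown. Parvaos, inside Parva, a focal adhesion gene, had 0.42, 0.504 and 0.625 CPM in induced controls, 1.03, 1.69 and 1.44 with the Trim28 hairpin and 1.22, 1.25 and 0.645 with both. It rose by 1.42 ± 0.36 and 1.04 ± 0.37, the second of which was lost with DESeq2, without any 1 of the induced controls and when replicate 1 or 2 was dropped from the double knockdown. Parvaos reached a mean of 1 CPM in these hairpin groups alone, which fixed the direction of both rises.

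With both hairpins Gt(ROSA)26Sor had 9.26, 8.63 and 8.27 CPM, above all 3 induced controls, a rise of 0.61 ± 0.14 (adjusted p = 0.00268) while Setd5 fell by 0.22 ± 0.064. Hoxb5os rose by 0.81 ± 0.29 and Zfp335os by 0.61 ± 0.22, but both calls were lost with DESeq2. That of Hoxb5os was also lost without replicate 2 or 3 of the induced controls or 1 or 3 of the double knockdown, and that of Zfp335os without any 1 of the 6 libraries. Abhd11os changed by -0.83 ± 0.29 (adjusted p = 0.0368), lost with DESeq2 and without replicate 3 of either group. Hoxb4, Hoxb5, Hoxb6, Hoxb8 and Hoxb9 rose by 0.54 ± 0.18, 0.50 ± 0.13, 0.41 ± 0.14, 0.57 ± 0.13 and 0.78 ± 0.12 in the same comparison, and Hoxb7 did not pass (0.22 ± 0.18). Brip1os fell by 0.23 ± 0.079, a call lost without replicate 2 of the induced controls or replicate 2 or 3 of the double knockdown.

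The last comparison sets both hairpins against the Trim28 hairpin alone, and so tests how the knockdowns differ. In it 4 of the 92 genes rose and 1 fell (2 fell without replicate 1 of the double knockdown), 5.43% called beside 21.7% of all tested genes (10% rose and 11.7% fell). Libraries of the groups did not overlap for 18 of the 92, beside 46.5% of all tested genes. At an unadjusted p under 0.05 the number was 15, and DESeq2 called 5. The rises were those of Gm15640 and Gm11100, of Hoxb5os (1.16 ± 0.31, from 0.582, 0.783 and 0.42 to 1.57, 1.09 and 1.29 CPM, lost without replicate 3 of the Trim28 knockdown or replicate 1 of the double knockdown) and of RP23-362B7.1. The fall was that of Gm17024, which lies on the same strand as Ifrd1 in an intron. Per kb of exon it stood at 2.98 CPM in uninduced cells, 7.76 in induced controls, 7.37 with the Trim28 hairpin and 4.51 with both. Its rise with induction and its fall with both hairpins against the induced controls were kept in all 12 alternatives. It had 5.17, 4.1 and 4.74 CPM with the Trim28 hairpin and 3.03, 3.15 and 2.41 with both, -0.67 ± 0.17 (adjusted p = 0.00941). Setdb1 fell here by 0.95 ± 0.085 and Trim28 rose by 0.82 ± 0.10, so the groups differ in both targets. When the 6 libraries of these groups were fitted alone, 9 genes were called, 8 of them rises.

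Whether an antisense gene moved with its partner was tested on the log ratio of the counts of both (limma, over all 98 antisense genes with a tested partner, 67 of them among the 92). With induction 30 of the 67 pairs changed unequally, beside 41.8% of the 98. The count was 4 with the Trim28 hairpin (5.10% of the 98), 8 with both (10.2%, and 5 pairs without replicate 3 of the induced controls) and 1 between the knockdowns (1.02%). During induction both genes fell in 13 pairs and both rose in 4, whereas in 5 the antisense gene fell and the partner rose, and no pair showed the reverse. The 30 include RP23-362B7.1 and Gm15614, which had 0 to 3 reads in either group. Across the 67 pairs, which share libraries and in part bases, the log2 changes had a Pearson r of 0.50 (Spearman rho 0.29) with induction, 0.40 (0.32) with the Trim28 hairpin and 0.41 (0.20) with both.

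The widest gap was that of Gm4673 and Lsr, a pair chosen here after its values were seen. Lsr, a tight junction gene of epithelia, rose from 0.183 to 0.354 CPM up to 22.7 to 30.5, by 6.44 ± 0.23, and Gm4673 fell by 0.68 ± 0.23, from 3.07, 2.62 and 2.01 CPM to 1.8, 1.51 and 1.88. The log ratio of the pair changed by -7.02 ± 0.29 (adjusted p = 6.9e-10). Gm15987 and Clec2g also parted, with -3.20 ± 0.40 in induction, and further in the knockdowns, where Clec2g rose by 2.09 ± 0.24 and 2.57 ± 0.22 and Gm15987 did not pass. Gm16104 and Nfic differed by 6.17 ± 0.41, Grin1os and Grin1 by 4.12 ± 0.48, and Igf2os and Igf2 by 1.64 ± 0.24. The sizes for Gm16104 and Grin1os depend on the 0.5 reads added, because both had very few reads in uninduced cells. Their wide counting intervals are given above. In the knockdowns the unequal pairs with a called antisense gene were Gm11100 and Thoc7 and Gm15614 and Yes1 in both, with Gm15640 and Phldb2 and Gt(ROSA)26Sor and Thumpd3 added with both hairpins. Gm12454 beside Car9, a carbonic anhydrase gene, was unequal in both, where the antisense gene did not pass and Car9 fell by 3.86 ± 0.45 and 2.72 ± 0.38.

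**Figure D5:**
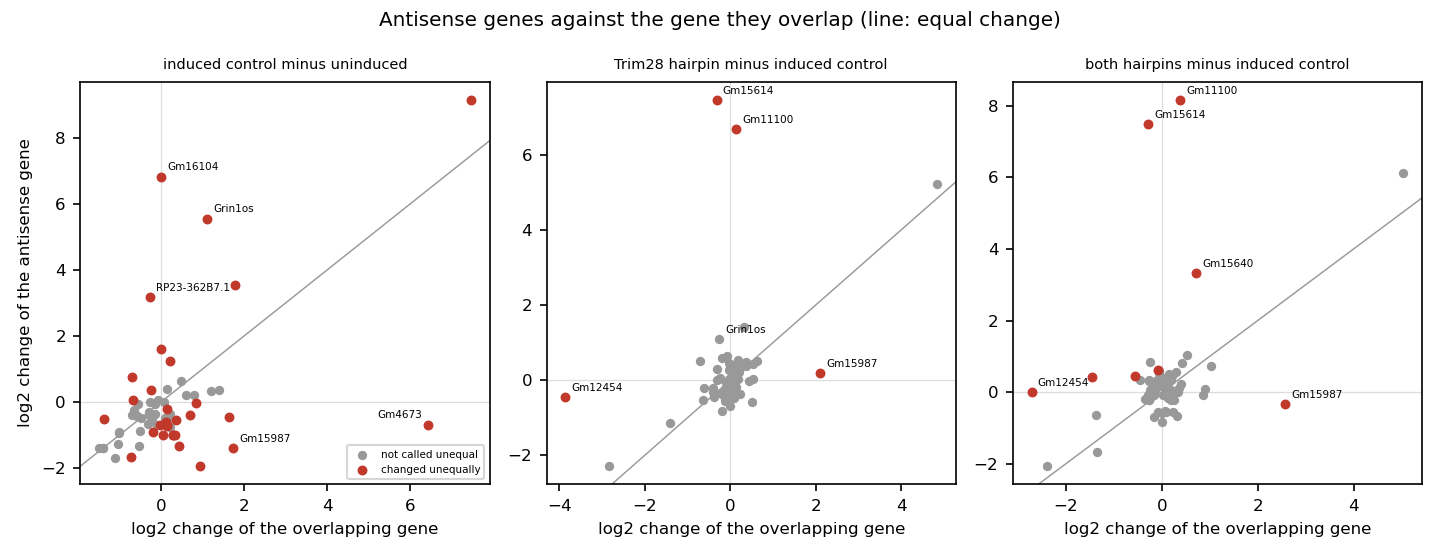
Fitted log2 change of the antisense gene against that of the overlapping gene for the 67 pairs in 3 comparisons, with the line of equal change and the 5 widest gaps named. Red pairs changed unequally (30, 4 and 8). Gm16104 and Gm4673 lie farthest from the line in induction, and Gm11100 and Gm15614 in both knockdowns.

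A list of noncoding regulators was set beside them. The table holds 21 of its names, of which Bdnf is typed protein coding there, and 5 are among the 92 genes (Airn, Hoxb5os, Zeb2os, Hoxd3os1 and Hotairm1). In the 12 that could be tested, which include Bdnf, 1 rose and 8 fell with induction, beside 65.3% of all tested genes called. With the Trim28 hairpin 1 rose and 2 fell, beside 24.9%, and with both 3 rose and 1 fell, beside 36.7%. Hotairm1 passed in none of the 4 comparisons, at 0.834 to 1.62 CPM over all libraries. Of the 92 antisense genes, 36 were called in no comparison, 36 in 1, 7 in 2 and 13 in 3. In the 4 comparisons 65.3%, 24.9%, 36.7% and 21.7% of all tested genes were called. How many of all tested genes were called in as many comparisons was not counted, so these numbers are a description.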

How the data were processed

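The deposited table holds raw counts of reads for 24207 genes in 12 libraries, made by the authors with TopHat2 2.0.12, Bowtie 1.1 and HTSeq (version not stated), per the submitters' processing notes. The genome build and strand setting are not given in the sources used here. Coordinates are those of the deposited table. CPM is the count over the column total. All 12 libraries entered 1 edgeR 4.0.16 quasi-likelihood fit (R 4.3.3, TMM factors, 1 term per group, minimum count 10, minimum total 15) over 14520 genes, with Benjamini-Hochberg adjustment and a limit of 0.05, and all 92 antisense genes passed the filter. Antisense to partner log ratios (0.5 reads added) were tested with limma 3.58.1 over 98 pairs. The scripts were tested on simulated data.

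Strand and exons came from GENCODE M21, matched by identifier (23882 of the 24207 found, 23856 at an overlapping place). A group with 0 reads is given as a bound against 3 reads, and one with 1 to 3 as a ratio with a 95% exact interval, covering counting error only. Named are the 10 highest genes, the 6 largest rises and 6 largest falls per comparison among called genes without overlap between libraries, called genes with a gene name, the genes next to the limit of 1 CPM, and their partners. Neighbours of these genes were chosen after their values were seen. The antisense genes, the gene lists and the marker lists (fibroblast, epithelial, pluripotent, macrophage, endothelial, neural, muscle) were chosen with earlier results of these data known. Deviations from group means correlated at -0.319 to 0.365 between same-numbered libraries of different groups and at -0.369 to 0.513 between libraries with other numbers. Every same-numbered pair was over 0.1 for induced controls with double knockdown (0.365, 0.184 and 0.258) and for no other 2 groups. No 2 libraries of a group agreed within sampling noise (chi-square over its degrees of freedom, 1.9 to 17.5). Alternatives were DESeq2 1.42.0, RLE factors, other filters, the 2 groups alone, a replicate block, other limits for membership and single libraries left out.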

Additional observations from a re-analysis of the deposited data

How the results depend on the processing

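No log2 change of a called antisense gene turned its direction in any alternative run. Of the calls, 30 of 45 with induction, 12 of 17 with the Trim28 hairpin, 13 of 22 with both hairpins and 4 of 5 between the knockdowns were kept in all alternatives that tested them. DESeq2 left 22 falls with induction and 7 rises with both hairpins. A minimum count of 30 left the same numbers because 12 of the falls and 4 of the rises were no longer tested, and no call tested there was lost. When the 2 groups compared were fitted alone, 9 genes were called between the knockdowns, 8 of them rises, and 8 pairs changed unequally with the Trim28 hairpin and 2 between the knockdowns. A pseudocount of 2 reads also gave 2 pairs between the knockdowns. With the replicate block 46, 17, 22 and 5 genes were called in the 4 comparisons and 29, 5, 9 and 1 pairs, so this pairing moved no count by over 1.5 times.

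Leaving out 1 library gave 35 to 43 calls with induction, 15 to 17 with the Trim28 hairpin, 17 to 20 with both and 5 to 6 between the knockdowns. Between the knockdowns it gave 3 to 5 rises and 1 to 2 falls, and unequal pairs numbered 5 to 11 with both hairpins.

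Narrower memberships lower these counts because fewer genes are counted. With a limit of 2 CPM in a group (52 genes), 28 were called with induction, 20 of them falls, and with 0.5 CPM (157 genes) 17 rose. With 1 CPM in every group (51 genes), 23 were called with induction, 3 rises and 20 falls. The numbers there were 8 called and 2 rises with the Trim28 hairpin, 11 called, 4 rises and 7 falls with both, and 1 called and 0 rises between the knockdowns. Among the 13 genes that overlap no other, induction called 5, 1 rise and 4 falls, the Trim28 hairpin 3, 1 rise and 2 falls, and both hairpins 4, 1 rise and 3 falls. Between the knockdowns 0 of these 13 were called, with 0 rises and 0 falls.

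At 1 CPM a gene has about 12 to 19 reads in a library, which limits the precision of its change.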

Other observations

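The marker lists of other cell types were low or moderate in all groups, and their part in the antisense changes was not tested. The 5 macrophage markers in the table summed to 6.65 to 7.62 CPM in uninduced cells, 13.6 to 19 in induced controls, 9.83 to 12.4 with the Trim28 hairpin and 7.57 to 9.06 with both. The 5 endothelial markers summed to 10.7 to 11.5, 44.1 to 59, 63.2 to 68 and 42.5 to 50.6 CPM, and Cldn5 had 0 reads in the uninduced cells and with both hairpins. The 5 neural markers summed to 225 to 257, 391 to 500, 432 to 474 and 458 to 529 CPM. The 4 muscle markers summed to 22.9 to 30.5, 11.5 to 16.5, 29.2 to 31.6 and 43 to 54.9 CPM, with Myod1 at 0 reads in every induced group and Myog in 2 of them.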
